A study of Mus musculus with 99 samples.

Results

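AEBP2 occupancy was profiled by ChIP-seq in 4 libraries of mouse embryonic stem cells (ESCs), chosen as the samples whose antibody label is AEBP2, out of 99 samples and 74 peak lists in the whole series. All 4 came from cells that carry a tamoxifen-inducible Cre at ROSA26, no RING1A (RING1A-/-) and RING1B alleles flanked by loxP sites (RING1B fl/fl), grown in 2i/LIF. The Parental line was used with ethanol vehicle (Parental -OHT) and after 72 h of 0.5 µM 4-hydroxytamoxifen (Parental +OHT), which deletes RING1B and leaves neither paralogue. In 2 derived lines an integrated FLAG-HA-tagged transgene gave either wild-type RING1B (RING1B WT +OHT) or the catalytically dead RING1B I53S (RING1B I53S +OHT), and both were treated with OHT for 72 h, so that the transgene was the remaining RING1B. The transgenic lines were selected clones, so clone and transgene cannot be told apart. No AEBP2 library of either transgenic line without OHT was analysed here. With 1 AEBP2 library per condition there was no replicate, and differences between conditions are given as values with no test.

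AEBP2 is a zinc-finger cofactor of Polycomb Repressive Complex 2 (PRC2), whose EZH2, EED and SUZ12 core methylates lysine 27 of histone H3 (H3K27me3) at CpG-rich promoters of silent developmental genes. Together with JARID2 it defines the PRC2.2 form, whereas Polycomb-like proteins such as MTF2, with EPOP, define PRC2.1. RING1A and RING1B are the ubiquitin ligases of PRC1 and deposit H2AK119ub1, a mark that JARID2 and AEBP2 are known to recognise.

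The following sequences come from AEBP2 peaks of 2 kinds. One kind was among the highest or broadest of Parental -OHT, and the other was still called when RING1B was absent. Both kinds include high scores. The first 5 are the bases directly upstream of the RefSeq start sites (GRCm38.p6, the mm10 assembly) of genes inside the highest-scoring or broadest Parental -OHT peaks, each 250 bases long and written on the strand of its gene, with every CpG in capitals. They lie at chr9:55540899-55541148 (Isl2, plus strand), chr11:82388650-82388899 (Tmem132e, plus), chr11:84525535-84525784 (Lhx1, minus), chr11:96281655-96281904 (Hoxb8, plus) and chr2:74679308-74679557 (Hoxd11, plus). The last 2 are the first 234 bases of the peaks chr14:19417811-19418639 and chr9:3024041-3024490 of the Parental +OHT list, written on the plus strand from the same assembly, as examples of the few regions called when RING1B was absent. The chr14 peak scored 61.6 in Parental +OHT and the chr9 peak 35.3, and the peaks at the same places in RING1B I53S +OHT scored 149.4 and 79.1.
Isl2: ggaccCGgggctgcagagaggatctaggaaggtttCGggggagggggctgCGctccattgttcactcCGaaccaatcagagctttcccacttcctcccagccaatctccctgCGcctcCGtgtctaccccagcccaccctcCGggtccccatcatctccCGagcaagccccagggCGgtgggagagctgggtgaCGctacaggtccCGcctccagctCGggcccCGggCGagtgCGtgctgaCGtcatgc
Tmem132e: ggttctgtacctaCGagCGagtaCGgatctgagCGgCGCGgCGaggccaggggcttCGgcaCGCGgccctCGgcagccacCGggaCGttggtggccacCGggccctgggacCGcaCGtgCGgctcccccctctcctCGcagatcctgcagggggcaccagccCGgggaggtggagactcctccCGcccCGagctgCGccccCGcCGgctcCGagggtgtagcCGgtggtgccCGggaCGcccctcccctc
Lhx1: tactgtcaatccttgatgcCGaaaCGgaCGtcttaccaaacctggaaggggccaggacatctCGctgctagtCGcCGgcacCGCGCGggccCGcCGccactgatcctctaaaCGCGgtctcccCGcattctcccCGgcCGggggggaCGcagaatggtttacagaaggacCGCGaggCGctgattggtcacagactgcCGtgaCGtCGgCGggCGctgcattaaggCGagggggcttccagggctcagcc
Hoxb8: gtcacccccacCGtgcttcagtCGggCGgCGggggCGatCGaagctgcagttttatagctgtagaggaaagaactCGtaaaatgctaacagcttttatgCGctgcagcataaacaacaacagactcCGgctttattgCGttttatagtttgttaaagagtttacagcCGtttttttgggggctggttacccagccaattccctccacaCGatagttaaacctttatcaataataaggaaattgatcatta
Hoxd11: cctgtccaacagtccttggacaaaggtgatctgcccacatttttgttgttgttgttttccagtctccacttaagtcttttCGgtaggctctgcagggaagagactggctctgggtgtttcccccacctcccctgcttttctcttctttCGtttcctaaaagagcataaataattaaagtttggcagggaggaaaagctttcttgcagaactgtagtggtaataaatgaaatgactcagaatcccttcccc
chr14:19417811-19418044: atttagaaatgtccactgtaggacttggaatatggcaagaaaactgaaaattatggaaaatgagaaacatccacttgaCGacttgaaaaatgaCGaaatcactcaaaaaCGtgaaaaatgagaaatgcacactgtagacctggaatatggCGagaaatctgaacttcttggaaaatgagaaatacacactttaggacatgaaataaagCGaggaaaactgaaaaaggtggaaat
chr9:3024041-3024274: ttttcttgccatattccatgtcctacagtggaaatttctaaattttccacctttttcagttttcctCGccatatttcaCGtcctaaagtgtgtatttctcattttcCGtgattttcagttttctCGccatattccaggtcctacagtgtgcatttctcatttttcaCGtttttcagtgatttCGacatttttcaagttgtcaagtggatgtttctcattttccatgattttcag
The upstream stretches of Tmem132e, Lhx1, Isl2, Hoxb8 and Hoxd11 held 28, 26, 16, 12 and 2 CpGs. Among the 16522 RefSeq promoters measured in the same window, 90.6% had fewer CpGs than Tmem132e and 15.4% had fewer than Hoxd11, so start sites with few CpGs also lay within strong peaks. The chr14 and chr9 stretches held 5 and 6 CpGs and had 35.04% and 35.9% G+C. Their 2.14 and 2.56 CpGs per 100 bases were above the 0.8 of Hoxd11 and below the 4.8 to 11.2 of the other 4 genes. Within the chr9 peak, bases 234 positions apart were identical in 94.4% of cases, the highest value among the 14 Parental +OHT peaks. The best offset of the chr14 peak was 233 with 73.2% identity, and the other peaks at the proximal end of chromosome 9 had 52.4% to 75.1% at best offsets of 234 or 58. A tandem repeat near the chromosome's proximal end is typical of mouse major satellite DNA.

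The number of AEBP2 peaks fell into a high and a low class. Parental -OHT had 1331 peaks covering 3.02 Mb and RING1B WT +OHT had 1475 covering 3.33 Mb, whereas Parental +OHT had 14 covering 0.0163 Mb and RING1B I53S +OHT had 50 covering 0.0902 Mb. Median peak widths were 1738, 1699, 1024 and 1220 bp in that same order. Each peak carries a score, the −log10 of the MACS2 p-value against input, and no list held a score under 10. The median score was 15.2 in Parental -OHT, 15.5 in RING1B WT +OHT, 16.7 in Parental +OHT and 14.6 in RING1B I53S +OHT. The short lists had more of their peaks at regions that are also called in input, the DNA without immunoprecipitation. The 4 input peak lists used for this, with 60 peaks in all, come from MTF2 knockout (MTF2 KO) derivatives of the same lines, 1 for each of the 4 conditions, so they are not the matched inputs of the AEBP2 libraries. An input peak was overlapped by 13 of the 14 Parental +OHT peaks (92.9%, Wilson 95% interval 68.5 to 98.7). The same held for 18 of 50 peaks in RING1B I53S +OHT (36.0%, 24.1 to 49.9), 10 of 1331 in Parental -OHT (0.751%) and 8 of 1475 in RING1B WT +OHT (0.542%). Sequencing depth is unknown from peak lists, and depth and antibody efficiency move such counts, so their part in these differences was not tested. Intervals here cover counting over peaks only.

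**Figure D1:**
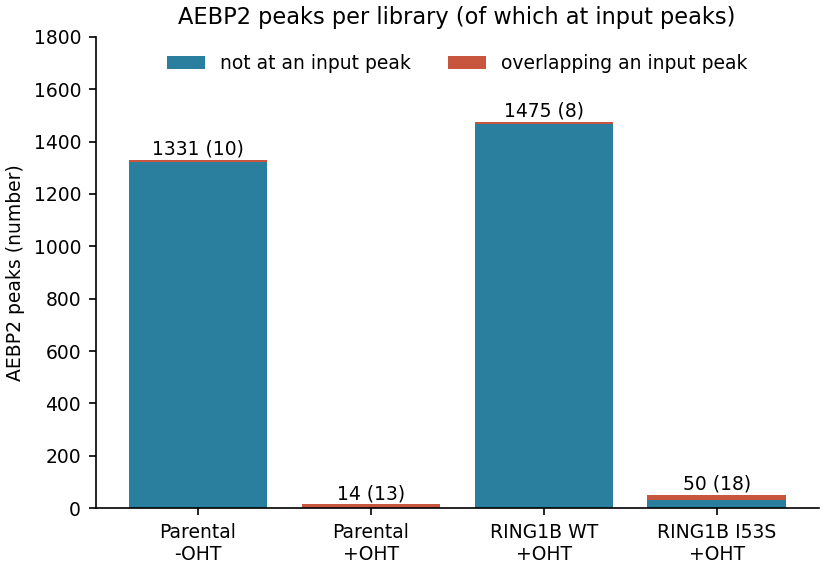
Number of AEBP2 peaks (vertical axis) in each of the 4 libraries (1 library per bar), with the part overlapping a peak of an input library in red and its number in brackets. The bars stand at 1331 and 1475 for Parental -OHT and RING1B WT +OHT and at 14 and 50 for Parental +OHT and RING1B I53S +OHT.

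The targeted gene was checked first in the other measurements of these lines. RING1B ChIP-seq gave 5073 peaks in Parental -OHT, 690 in Parental +OHT, 3941 in RING1B WT +OHT and 1287 in RING1B I53S +OHT. Rnf2, the gene of RING1B, had 198 and 257 CPM (read counts scaled to library size) in the 2 Parental RNA libraries without OHT and 144 and 167 with OHT. That was a log2 fold change of -0.55 ± 0.20 (SE, n = 2 per group, edgeR adjusted p = 0.0346). The count covers all exons, and in the transgenic lines also the transgene, so it says little about the deleted part. All 8 ESC markers, among them Pou5f1, Nanog and Sox2, were at 46.5 CPM or above in each Parental, RING1B WT and RING1B I53S library.

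The AEBP2 peaks of Parental -OHT were largely found again with RING1B WT and hardly at all in the other 2 libraries. Of the 1331 Parental -OHT peaks, 1035 (77.8%, 75.4 to 79.9) overlapped a RING1B WT +OHT peak by at least 1 bp. Only 6 (0.451%, 0.207 to 0.980) overlapped a peak of Parental +OHT, and 5 of these 6 were at input peaks. With RING1B I53S +OHT 12 overlapped (0.902%, 0.516 to 1.57), 10 of them at input peaks. In the reverse direction, 6 of the 14 Parental +OHT peaks (42.9%, 21.4 to 67.4) and 10 of the 50 RING1B I53S +OHT peaks (20%, 11.2 to 33.04) overlapped a Parental -OHT peak, 5 and 8 of them at input peaks. The short lists resembled each other, as 13 of the 14 Parental +OHT peaks overlapped a RING1B I53S +OHT peak, 12 of them at input peaks. In the long lists, 1007 of the 1475 RING1B WT +OHT peaks (68.3%, 65.9 to 70.6) overlapped a Parental -OHT peak. Overlap followed the score: 49.7% of Parental -OHT peaks with scores of 10 to 12 were found with RING1B WT, 71.7% at 12 to 15, 89.0% at 15 to 20, 97.0% at 20 to 30 and 99.0% at 30 or more.

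After the 2 long lists were merged, they formed 1735 loci, of which 971 had a peak in both, 296 in Parental -OHT alone and 468 in RING1B WT +OHT alone. The unshared loci were weak, with a median score of 11.7 in the Parental -OHT set against 16.9 for the shared loci in that library. They were also Polycomb sites in the other line: 287 of the 296 had a JARID2 peak in RING1B WT +OHT (replicate 2), and 459 of the 468 had one in Parental -OHT. At the 971 shared loci the score was higher with RING1B WT at 598 (61.6%), with a median difference of 1.38 (quartiles -2.47 and 6.22). Scores and covered lengths ran together between the 2 libraries, with Spearman rho of 0.62 and 0.78 over the 971 loci, which share the antibody and the underlying sequence. The median log2 ratio of covered length was 0.00081. No peak was called in Parental +OHT or RING1B I53S +OHT at 964 of the 971.

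**Figure D2:**
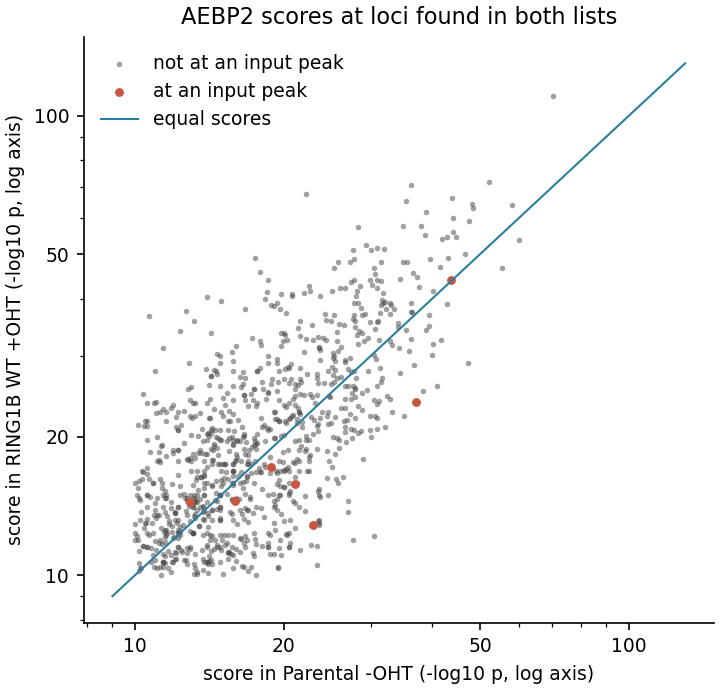
Highest AEBP2 score at each of the 971 loci with a peak in both long lists, Parental -OHT on the horizontal and RING1B WT +OHT on the vertical axis (−log10 p, both axes logarithmic). Red points overlap an input peak and the line marks equal scores; 61.6% of points lie above it, and the highest, at Hoxb2, is 70.3 against 110.2.

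The strongest AEBP2 peaks stood mostly at genes of patterning transcription factors. The highest of Parental -OHT, 6.66 kb over the promoter of Hoxb2 (chr11:96348701-96355356), scored 70.3 there and 110.2 in RING1B WT +OHT, with no peak in either of the other 2 libraries. Isl2, a LIM-homeodomain factor of motor neurons whose upstream sequence is shown above, scored 59.8 and 53.7, and Otx1, a forebrain homeobox gene, scored 58.0 and 63.8. Sox9, a regulator of cartilage and gonad development, scored 52.2 and 71.8. Hoxd11 (48.2 and 64.2), Emx1 (47.5 and 59.0) and Tmem132e (46.6 and 50.0) followed, and none of these had a peak in Parental +OHT or RING1B I53S +OHT. The only one of the 10 highest that was also called in those 2 libraries was a 696 bp peak at the predicted gene Gm10717. It lay on proximal chromosome 9 at an input peak and scored 56.2 in Parental -OHT, 53.4 in Parental +OHT and 132.4 in RING1B I53S +OHT.

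Some loci ranked differently with the wild-type transgene. The 5 highest peaks of RING1B WT +OHT lay at Hoxb2, Sox9, Neurod2, Meis2 and Grb10. Neurod2, a neuronal bHLH factor, scored 70.6 against 36.2 in Parental -OHT, and Meis2, a TALE homeobox partner of Hox proteins, 67.5 against 22.2. At Grb10, an imprinted growth-inhibiting adaptor gene, the peak was 18.6 kb wide and scored 66.3 against 43.8. With 1 library each, no error can be put on these differences.

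The broadest AEBP2 domain was in the Hoxb cluster. A single Parental -OHT peak of 44.4 kb (chr11:96274056-96318416) spanned the promoters of Hoxb4 to Hoxb8, and in RING1B WT +OHT the matching peak was 39.4 kb wide. Between the outer ends of its genes (chr11:96194316-96368256, 174 kb), the Hoxb cluster was covered to 51.9% in Parental -OHT and 53.3% in RING1B WT +OHT. Coverage in the same 2 libraries was 45.4% and 50.7% for Hoxa, 36.6% and 41.3% for Hoxd and 15.5% and 19.9% for Hoxc. Parental +OHT and RING1B I53S +OHT had 0 peaks in all 4 clusters. Promoters with a Parental -OHT peak were 10 of 11 in Hoxa, 10 of 10 in Hoxb, 6 of 9 in Hoxc and 7 of 9 in Hoxd. Outside the Hox clusters the broadest Parental -OHT peaks covered Pax7 (14.5 kb), Six3 (13.2 kb), Otx1 (12.5 kb), Lhx2 (12.04 kb), Pitx1 (12 kb), Lhx1 (11.9 kb), Tbx4 (11.7 kb) and Lmx1b (11.6 kb), each a regulator of body or organ patterning.

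**Figure D3:**
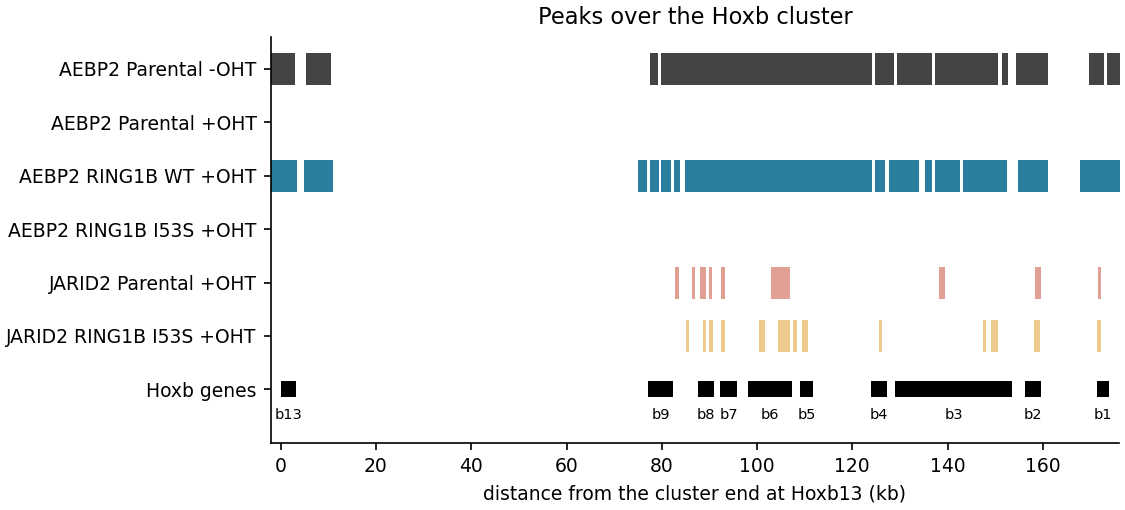
Peaks over the Hoxb cluster (horizontal axis, distance in kb from the cluster end at Hoxb13), with 1 row per library and the genes below. AEBP2 covers 51.9% and 53.3% of the cluster in Parental -OHT and RING1B WT +OHT and has 0 peaks in the other 2 libraries, where JARID2 (pale rows, RING1B I53S from replicate 2) still has short peaks.

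AEBP2 peaks were mostly promoter-proximal. Within 2.5 kb of an annotated start site lay 84.4% of the peaks in Parental -OHT (82.4 to 86.3) and 80.4% in RING1B WT +OHT (78.3 to 82.4). The share was 52.0% (38.5 to 65.2) of the 50 peaks in RING1B I53S +OHT, and 12 of 14 in Parental +OHT, where the start sites belong largely to predicted genes in repeats. Protein-coding genes with a promoter peak numbered 903 in Parental -OHT, or 4.12% of 21924, and 949 in RING1B WT +OHT (4.33%). Parental +OHT had 13 (0.0593%) and RING1B I53S +OHT had 17 (0.0775%). The 733 genes in both long lists were 81.2% of the first and 77.2% of the second.

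Gene families of developmental regulators were nearly completely marked, against that background of 4.12%. A Parental -OHT promoter peak was found at 12 of 12 LIM homeobox genes (highest Isl2, Lhx1 at 44.6 and Lmx1b at 44.1), 6 of 6 Irx genes (Irx5 at 28.5) and 8 of 9 Pax genes (Pax7 at 43.0, Pax2 at 36.6). The same was true of 7 of 8 Dlx and Msx genes (Dlx6 at 39.6), 5 of 6 Gata genes (Gata6 at 32.8, Gata3 at 30.8) and 17 of 19 Wnt ligand genes (Wnt3a at 28.8). Lower shares were seen for Nkx factors (10 of 13), T-box factors (9 of 12), forkhead factors (16 of 22), proneural bHLH factors (9 of 14), Sox lineage factors (8 of 13) and Zic factors (3 of 5). BMP and GDF ligands had 4 of 13 and cyclin-dependent kinase inhibitors 2 of 7 (Cdkn2c at 15.7 and Cdkn1c at 15.6). In contrast, 0 of 16 housekeeping genes and 0 of 16 pluripotency genes had one. In RING1B WT +OHT the counts were within 2 genes of these for every list named, and 1 pluripotency gene, Esrrb, had a peak. None of the members of any of these lists had a peak in Parental +OHT or RING1B I53S +OHT. The lists were chosen with earlier results of these data known.

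Among the genes of PRC2 itself, Phf19, a Polycomb-like subunit of PRC2.1, was the only one of 13 with an AEBP2 promoter peak, at a score of 10.3 in Parental -OHT. Aebp2 and Jarid2 had none in any of the 4 lists.

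AEBP2 peaks were called more often at wider RING1B peaks. The 3941 RING1B peaks of RING1B WT +OHT served as target loci. An AEBP2 peak lay at 29.8% of them in Parental -OHT, 31.6% in RING1B WT +OHT, 0.152% in Parental +OHT and 0.355% in RING1B I53S +OHT. By width of the RING1B peak, the Parental -OHT share was 4.81% under 1 kb (70 of 1455), 26.1% at 1 to 2 kb, 68.9% at 2 to 5 kb and 94.4% at 5 kb or more (102 of 108). RING1B WT +OHT followed the same order with 6.05%, 27.9%, 71.3% and 98.1%. A wider locus has more room for an overlap of 1 bp, and AEBP2 scores lay close to the calling threshold. The part of either in this order was not tested. In Parental +OHT, 0 of the 896 and 0 of the 108 loci in the 2 wider classes had a peak, with upper Wilson bounds of 0.427% and 3.43%.

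In Parental -OHT, AEBP2 was found where the other PRC2 proteins were. Of its 1331 peaks, 1330 overlapped a JARID2 peak, 1324 MTF2, 1319 H3K27me3, 1312 SUZ12, 1309 EPOP, 1276 RING1B and 1245 H2AK119ub1. The converse did not hold, as those lists were longer: the 1331 peaks touched 6.67% of 14778 JARID2, 3.97% of 24485 MTF2, 11.4% of 9321 SUZ12 and 22.6% of 5073 RING1B peaks. Called AEBP2 peaks lay mostly at the strongest of them. AEBP2 scores were low (median 15.2 in Parental -OHT), so weak binding at lower ranks could go uncalled, which was not tested. By JARID2 score, 91.4% of the top 500 peaks held AEBP2 (88.6 to 93.6), 56.4% of ranks 501 to 1000, 17.7% of ranks 1001 to 2000 and 2.45% of ranks 2001 to 4000. MTF2 peaks gave nearly the same decline, with 88.0%, 50.8%, 18.7% and 3.10%. In RING1B WT +OHT the ranks of JARID2 replicate 2 gave 93.6%, 64.4%, 22.3% and 4.95%.

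The long lists had the higher G+C content and CpG density. Median G+C was 56.4% in Parental -OHT and 55.7% in RING1B WT +OHT, and the median number of CpGs per 100 bases was 4.53 in both. In Parental +OHT these were 35.1% and 1.94. RING1B I53S +OHT had 44.0% and 1.06, and its 32 peaks away from input peaks 0.759 CpGs per 100 bases, below the 0.959 of chromosome 19 as a whole. The ratio of observed to expected CpGs, which corrects for G+C, was not ordered that way. Its median was highest in Parental +OHT at 0.717, followed by 0.587 in Parental -OHT, 0.586 in RING1B WT +OHT and 0.186 in RING1B I53S +OHT, with 0.210 for chromosome 19. Over the 250 bases upstream of RefSeq start sites, the median was 16 CpGs for 611 genes with a Parental -OHT AEBP2 promoter peak, 14 for 4457 genes with JARID2 but no AEBP2, and 7.5 for 11454 genes with neither.

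The peaks that were called without catalytically active RING1B were examined one by one. In Parental +OHT, 9 of the 14 lay at the proximal end of chromosome 9, and the highest, with a score of 1391, was a 950 bp region at the predicted gene Gm10800 (chr2:98666316-98667265), also at an input peak. The only one away from input peaks scored 10.2 on chromosome 1 near Trpm8. Just 3 loci had a peak in all 4 libraries, at Coil, Gm21738 and Gm10720, and each overlapped an input peak. Coil scored 43.6 in Parental -OHT, 16.4 in Parental +OHT, 43.8 in RING1B WT +OHT and 42.7 in RING1B I53S +OHT.

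In RING1B I53S +OHT, 13 of the 32 peaks away from input peaks formed one block on chromosome 1 (chr1:88212388-88310618). This block of 98.2 kb starts near the promoter of Ugt1a1, and its second peak is already nearest to Mroh2a. It overlaps annotated genes of the Ugt1a cluster, which encodes glucuronosyltransferases, but does not hold the whole cluster. Mroh2a, Hjurp and Trpm8 follow. The 13 peaks covered 46.9 kb with scores of 10.9 to 25.6, against 2 AEBP2 peaks over 3.42 kb in Parental -OHT, 1 in Parental +OHT and 2 in RING1B WT +OHT. Other antibodies had peaks in the same span as well, for example 10 of SUZ12 and 12 of H2AK119ub1 in RING1B I53S +OHT and 27 of JARID2 in Parental -OHT. Of the 19 peaks that were neither at input peaks nor in this block, 1 had an AEBP2 peak in Parental -OHT or RING1B WT +OHT. For 9 of the 19 there was no peak of any other antibody in 36 further libraries.

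The 1331 AEBP2 loci of Parental -OHT were next followed through the other antibodies, which shows what remained where AEBP2 was no longer called. In Parental +OHT a JARID2 peak was still called at 55.2% of the loci (52.5 to 57.9), against 0.451% for AEBP2 and 1.43% for RING1B. EPOP was called at 67.0%, H2AK119ub1 at 73.3%, SUZ12 at 87.6%, H3K27me3 at 89.2% and MTF2 at 91.0%. AEBP2 therefore gave the lowest share of the 8 antibodies, and the PRC2.1 subunit MTF2 the highest. In RING1B I53S +OHT the order at the low end was the same, with AEBP2 at 0.902%, RING1B at 11.3% and JARID2 at 24.6% in replicate 2 and 49.1% in replicate 1. H2AK119ub1 was called at 53.5%, EPOP at 67.6%, SUZ12 at 72.2%, H3K27me3 at 72.4% and MTF2 at 89.6% in replicate 2 and 69.4% in replicate 1. The spread between those pairs of libraries of 1 antibody, over 20 percentage points, sets the scale on which the other shares can be read. In RING1B WT +OHT every antibody other than AEBP2 was called at 92.9% to 99.0% of the loci.

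A called peak is not a level. The median JARID2 score at the 1331 loci was 1414 in Parental -OHT and 18.9 where called in Parental +OHT, and for MTF2 the same values were 1449 and 56.0. In RING1B WT +OHT, replicates 1 and 2 had medians of 327.6 and 288.6 for JARID2 and 301.8 and 209.5 for MTF2. Scores well below those of Parental -OHT were thus also seen with wild-type RING1B. H2AK119ub1 peaks had 29.0 in Parental -OHT and 25.5 in Parental +OHT, and H3K27me3 peaks 34.1 and 27.1. For histone marks the study's methods describe scaling to added Drosophila chromatin for signal tracks, not for peak calling. By western blot and scaled signal, the paper reports H2AK119ub1 as lost in Parental and RING1B I53S cells with OHT. The peaks and scores of this mark are therefore no measure of its level. AEBP2 scores in Parental -OHT had a median of 15.2, so AEBP2 had less room above the calling threshold of 10 than JARID2, MTF2 or SUZ12 (392). The part of this gap in the different shares was not tested. Titles of the SUZ12, H3K27me3, RING1B and H2AK119ub1 libraries and of replicate 1 of JARID2 and MTF2 in the transgenic lines carry no hour, and only the treatment protocol gives 72 h for them.

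**Figure D4:**
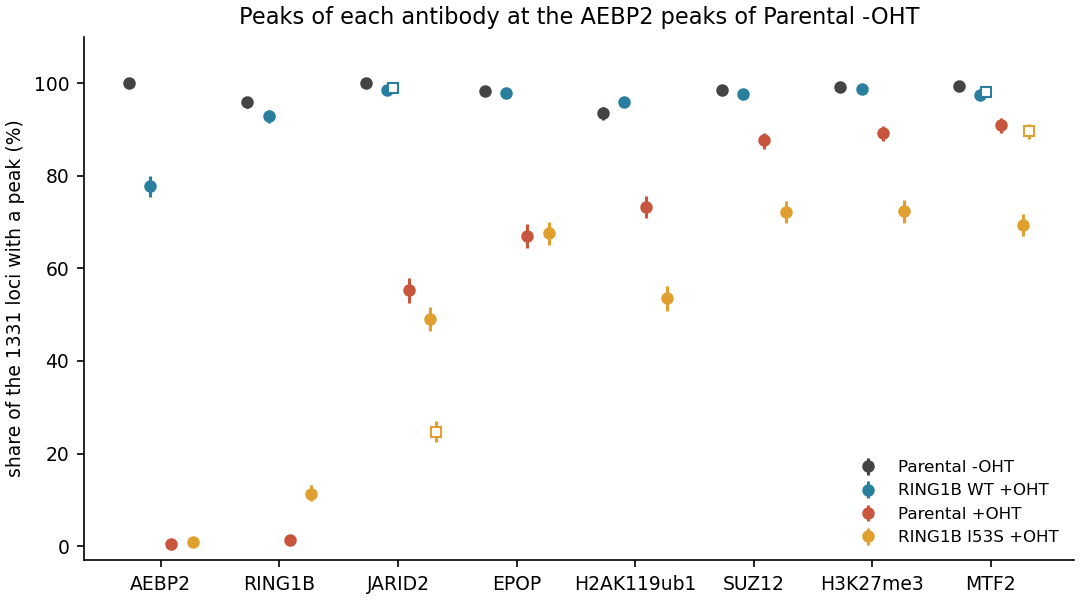
Share of the 1331 AEBP2 loci of Parental -OHT (vertical axis, %) with a peak of each antibody (horizontal axis) in the 4 conditions. Circles are replicate 1, open squares replicate 2, and bars Wilson 95% intervals; AEBP2 is at 77.8% in RING1B WT +OHT and under 1% in Parental +OHT and RING1B I53S +OHT, while MTF2 lies at 69.4% or above throughout.

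The stronger an AEBP2 locus was, the more often the other subunits were still called there. In Parental +OHT, JARID2 was called at 41.0% of loci with an AEBP2 score of 10 to 15, 59.8% at 15 to 20, 72.2% at 20 to 30 and 88.2% at 30 or more. MTF2 went from 87.1% to 98.0% over the same classes. In RING1B I53S +OHT, JARID2 went from 32.5% to 89.2% in replicate 1 and from 10.3% to 70.6% in replicate 2. MTF2 without JARID2 was the state of 485 loci (36.4%) in Parental +OHT. In RING1B I53S +OHT it was that of 296 loci (22.2%) with the replicate 1 libraries and 875 (65.7%) with those of replicate 2, one value below and one above that of Parental +OHT, so no order of the 2 conditions can be read from it. JARID2 without AEBP2 was found at 730 loci in Parental +OHT, and at 641 and 318 in RING1B I53S +OHT with replicates 1 and 2. JARID2 without MTF2 was rare, at 9 loci in Parental +OHT and 25 and 10 in the RING1B I53S +OHT pairs.

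RNA-seq of the same 3 lines, with and without OHT in 2 replicates each (8140106 to 12743460 counts per library), gave the expression of the genes with an AEBP2 promoter peak in Parental -OHT. These were largely silent genes: 562 of the 903 protein-coding ones (62.2%) were under 1 CPM in both Parental libraries without OHT, against 39.6% of all protein-coding genes. Including non-coding genes there were 1271, of which 806 passed the filter on low counts and 465 were not tested. Since a silent gene could pass only through the libraries in which it was high, the counts that follow describe the genes and are no separate evidence. A gene was called at an edgeR adjusted p under 0.05 and a log2 fold change of 1.5 or more in either direction. With OHT, 595 of the 1271 rose in Parental, or 73.8% of the 806 tested, against 15.1% of all genes tested. In the same line 3 fell (background 1.83%). In RING1B I53S 569 rose, or 70.6% of those tested (background 12.8%), and 1 fell (1.04%). In RING1B WT 58 rose (background 1.34%) and 0 fell (0.0386%). Leaving out replicate 2 of the RING1B WT libraries took the 58 to 3 where it was the one without OHT, and to 7 where it was the one with OHT. The 533 AEBP2 genes that rose in both Parental and RING1B I53S were 89.6% and 93.7% of the 2 sets.

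Among genes that were already expressed the pattern was the same in direction. Of the 277 AEBP2 genes with 1 CPM or more in both Parental libraries without OHT, 135 (48.7%) rose and 3 fell (background 2.19%), with a median log2 fold change of 1.40. Over all 14004 genes at that level 6.72% rose, with a median of -0.11, and over the 1913 with RING1B but no AEBP2 promoter peak 23.6% rose. In RING1B I53S, 129 of 302 rose (42.7%, background 5.64%) and 1 fell (1.24%). In RING1B WT 10 of 268 rose (3.73%, background 0.599%) and 0 fell (0.0499%). The difference between the OHT effects of RING1B WT and Parental was tested as an interaction in the same model. By that test 73 of the 806 tested AEBP2 genes (9.06%) responded less in RING1B WT (1.1% of all genes did) and 0 responded more (0.435%).

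The genes with the lowest adjusted p in Parental were Gata3, Ccnd2, Crabp1, Hand1 and Nkx2-9. Gata3, a zinc-finger factor of trophoblast and T cells, in Parental had 0.489 and 0.494 CPM before OHT and 52.9 and 51.8 after it, with 0.927 and 0.672 against 35.6 and 36.8 in RING1B I53S, and 1.60 and 1.21 against 4.93 and 7.60 in RING1B WT. The log2 fold changes were 6.70 ± 0.36 (SE, n = 2 per group, edgeR adjusted p = 7.02e-10), 5.46 ± 0.33 and 2.13 ± 0.34 in that order. The groups with and without OHT did not overlap in any line, and the OHT libraries of RING1B WT lay below those of the other 2 lines. Ccnd2, a G1 cyclin, went from 2.44 and 4.33 CPM to 194.5 and 166.1 in Parental, from 2.39 and 3.07 to 86.3 and 86.5 in RING1B I53S, and from 2.57 and 5.27 to 13.4 and 23.7 in RING1B WT. Its AEBP2 score was 30.1 in Parental -OHT and 50.9 in RING1B WT +OHT, with no peak in the other 2 libraries. Hand1, a bHLH factor of trophoblast and heart, went from 0.244 and 0.247 to 20.9 and 20.6 CPM in Parental. Crabp1, a retinoic acid binding protein, went from 23.9 and 18.5 to 166.3 and 165.8, although its AEBP2 peak scored only 11.3. For Nkx2-9, with 3 counts over both Parental libraries without OHT and 332 with OHT, the ratio of CPM was 117 (95% counting interval 39.7 to 571).

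Among genes at the highest AEBP2 peaks of Parental -OHT, Isl2, Otx1, Sox9, Hoxb6, Hoxd11, Emx1 and Tmem132e rose in Parental, while Hoxb2 and Gm10717 were not tested. Sox9 in Parental went from 0.326 and 0.124 CPM to 19.5 and 22.3, a log2 fold change of 6.35 ± 0.65 (SE, edgeR adjusted p = 6.07e-07). In RING1B WT it had 0.856 and 0 against 0.403 and 1.25, which did not pass the test (edgeR adjusted p = 0.674). Otx1 rose from 0.733 and 0.618 to 25.9 and 27.7 CPM in Parental. The Parental groups with and without OHT did not overlap for either gene. Hoxb2, under the highest peak of all, was not tested, with 0 counts in both libraries without OHT and 3 and 9 with OHT, at least 4.23-fold higher against a floor of 3 counts over the group. Lhx1, also at 0 without OHT, was at least 60.7-fold higher. Neurod2 had 0 counts without OHT and 0 and 1 with OHT, so that a change was not detectable at this depth despite a peak of 36.2.

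**Figure D5:**
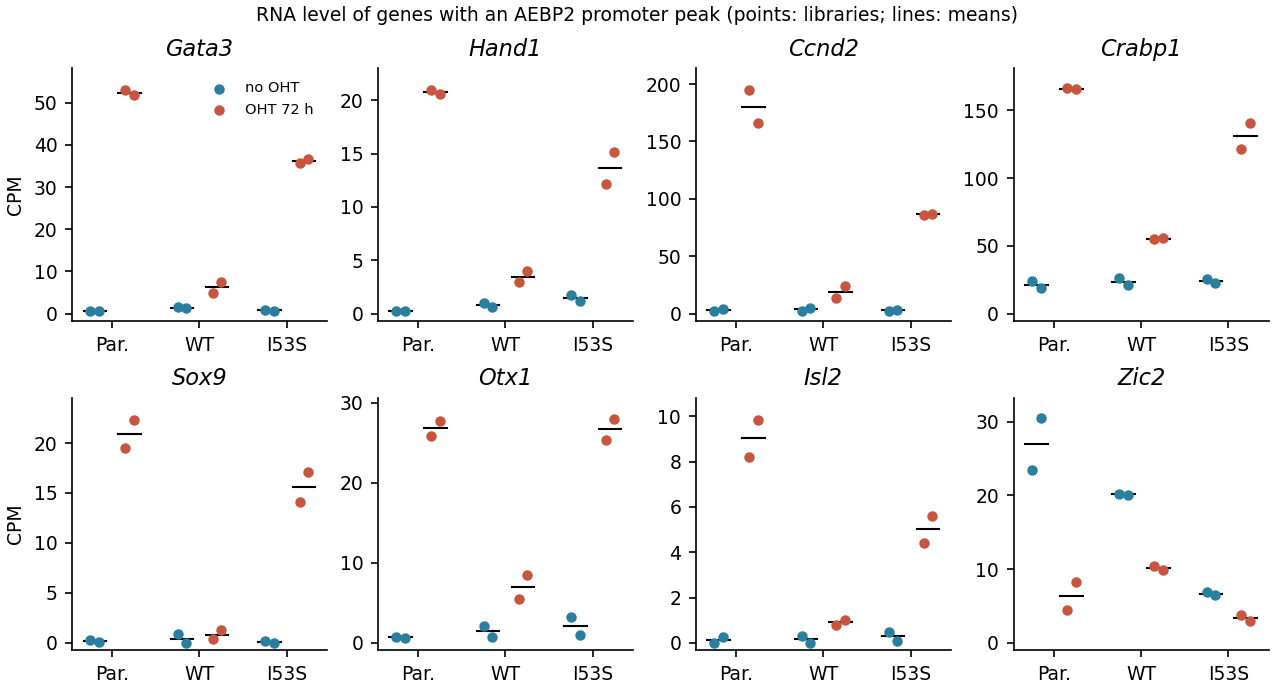
CPM (vertical axis, from 0 in each panel) of 8 genes with an AEBP2 promoter peak in Parental (Par.), RING1B WT and RING1B I53S cells, with 2 libraries per group as points and their mean as a line. For Sox9 the Parental libraries with OHT are at 19.5 and 22.3 CPM and those without at 0.326 or below, and Zic2 runs the other way.

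Only 3 AEBP2 genes fell in Parental: Zic2, Vax2os and 2610035F20Rik. Zic2, a zinc-finger factor of early neural and pluripotent cells, went from 23.5 and 30.5 CPM to 4.44 and 8.19, a log2 fold change of -2.10 ± 0.29 (SE, edgeR adjusted p = 1.91e-05). In RING1B I53S, where it started from 6.88 and 6.43 CPM, the change of -0.99 was below the fold threshold. Zic2 and 2610035F20Rik lie under the same peak, which scored 10.1 in Parental -OHT and 21.2 in RING1B WT +OHT, and counting was without strand, so overlapping reads of neighbours cannot be told apart. Vax2os, a non-coding gene on the opposite strand of Vax2, had a stronger peak of 29.3.

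Counted over all members of each list, 11 of 12 LIM homeobox genes rose in Parental and 1 of 12 in RING1B WT. Members that failed the filter on low counts were not tested and stand among those not called. Numbers tested were 7 Hoxa, 7 Hoxb, 8 Hoxc, 7 Hoxd, 4 Irx, 8 Pax, 10 T-box and 12 Sox genes. They were 15 forkhead, 10 BMP and GDF, 8 Nkx and 9 proneural bHLH genes, and all members of the other lists in this paragraph. For Dlx and Msx genes this was 8 and 2 of 8, for Wnt ligands 16 and 2 of 19, for Gata factors 6 and 1 of 6, for Hoxa genes 7 and 3 of 11 and for Hoxb genes 7 and 1 of 10. RING1B I53S gave 11, 8, 16, 5, 6 and 7 in the same order. In Parental, RING1B WT and RING1B I53S, the higher genes were 7, 1 and 7 of 9 Hoxd genes, 5, 0 and 5 of 9 Hoxc genes, 4, 0 and 4 of 6 Irx genes and 7, 1 and 6 of 9 Pax genes. They were 8, 1 and 8 of 12 T-box factors, 9, 0 and 9 of 13 Sox lineage factors and 12, 0 and 11 of 22 forkhead factors, with 1 forkhead gene lower in RING1B I53S. In other lists the higher genes were 7, 1 and 6 of 13 BMP and GDF ligands and 4, 1 and 5 of 13 Nkx factors. Proneural bHLH factors gave 4, 0 and 2 of 14, and cyclin-dependent kinase inhibitors 3, 0 and 3 of 7. Zic factors went both ways, with 2 of 5 higher and 3 lower in Parental, 2 higher and 1 lower in RING1B I53S and 0 called in RING1B WT. Of the 16 pluripotency genes, 0 were higher in any line, and 5 were lower in Parental, 4 in RING1B I53S and 0 in RING1B WT. Over all genes tested, 1.83%, 1.04% and 0.0386% were lower in that order of lines. Of the 16 housekeeping genes 0 were called in any line. The same thresholds called 15.1% of all genes tested higher in Parental, 12.8% in RING1B I53S and 1.34% in RING1B WT. Among PRC2 genes, Phf19 rose in Parental (2.36 and 1.98 to 7.52 and 7.21 CPM, log2 fold change 1.75 ± 0.41, edgeR adjusted p = 0.00233) and in RING1B I53S (2.13 ± 0.40). None of the other 12 was called in any line, and the largest change in Parental was that of Eed at -0.95 ± 0.20 (edgeR adjusted p = 0.00128), below the fold threshold. Aebp2 itself had 49.9 and 46.9 CPM without and 66.3 and 57.1 with OHT in Parental, and the change of 0.35 ± 0.22 did not pass (edgeR adjusted p = 0.242). Its count does not separate isoforms.

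Markers of other cell types moved with these results. The summed CPM of 8 ESC markers in Parental was 5086 and 6440 before OHT and 2736 and 2864 after it, that of 12 trophoblast markers 266 and 218 against 791 and 768, and that of 10 primitive endoderm markers 103 and 113 against 384 and 392. In RING1B I53S the ESC sums were 4372 and 5535 against 2768 and 2857, the trophoblast sums 282 and 226 against 569 and 647, and the primitive endoderm sums 132 and 103 against 339 and 386. In RING1B WT the ESC sums overlapped, with 4642 and 5474 against 4541 and 4742. Its trophoblast sums were 237 and 209 against 327 and 309, and its primitive endoderm sums 121 and 115 against 176 and 198, and neither pair of groups overlapped. Called higher were 8, 4 and 7 of the 12 trophoblast markers and 9, 0 and 9 of the 10 primitive endoderm markers in Parental, RING1B WT and RING1B I53S. Of these markers, 11 trophoblast and 10 primitive endoderm ones were tested. Over all genes tested, 15.1%, 1.34% and 12.8% were higher in the same order. AEBP2 promoter peaks covered 4 of the 12 trophoblast and 7 of the 10 primitive endoderm markers, so the lists share genes. In bulk RNA, more cells of a type and more RNA per cell cannot be told apart, and the part of a change in cell state in the AEBP2 results was not tested. All 10 primitive endoderm markers were at 1 CPM or above in both Parental libraries with OHT, against 5 and 4 in those without. The 10 fibroblast markers summed to 127 and 140 CPM without and 93.8 and 87.5 with OHT in Parental, but 3 of the 5 that were tested were called higher and 1 lower, and 6 and 5 markers were at 1 CPM or more with OHT against 3 and 3 without.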

How the data were processed

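Peak lists were analysed as deposited. Per the study's methods, the authors aligned ChIP-seq reads to mm10 with Bowtie 1.2.2, removed duplicates and called peaks per library against an input with MACS2 2.1.1 at p = 1e-10. Each deposited peak carries a score, the −log10 of its p-value, and peak numbers in the names run higher than the number of lines (2360 for 1331 in Parental -OHT), so each list holds part of the calls. The deposited RNA counts are whole reads per gene name, made by the authors with STAR 2.7 and featureCounts without strand on GENCODE M21. The authors' own comparison columns were not used.

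Peaks overlapping by at least 1 bp were counted as shared, promoters were 2.5 kb to either side of an annotated start site, and loci were merged peaks. Input peaks were those of the 4 MTF2 KO input libraries. Where JARID2 or MTF2 had 2 libraries, replicate 2 was used unless both are given. Shares have Wilson 95% intervals. RNA was tested with edgeR 4.0.16 (R 4.3.3, TMM, filterByExpr, quasi-likelihood, 6 groups of 2 libraries in one fit, Benjamini-Hochberg adjustment over 18154 genes). Nothing states that replicates came from separate cultures, so p-values measure the spread between these libraries, which may be technical. On simulated data for Parental with 18154 genes, 92% of genes with a true log2 change of 2 were called. At a true change of 1, below the fold threshold, 2% were. The changed genes were picked above a minimum level of expression, so these shares do not cover near-silent genes, as most AEBP2 genes were. CPM are counts scaled by the library total over the tested genes, adjusted by its TMM factor. Floors of 3 counts and ratios with a counting interval use the library total over all genes instead. Sequence came from RefSeq promoter tables and GRCm38.

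Genes were named by rule: those at the 10 highest peaks of Parental -OHT, the 5 highest of each other library, the highest shared by all 4, PRC2 genes, the highest 2 or 3 of each gene list, and the 5 lowest adjusted p in each direction. One gene that the rule names is not reported here. The AEBP2 libraries and gene lists were chosen with earlier results of these data known. Alternatives were other score, overlap and promoter settings, DESeq2 1.42.0, other RNA filters and leaving out each RNA replicate; 2 alternatives without AEBP2 peaks at input peaks were added after seeing the data.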

Additional observations from a re-analysis of the deposited data

Results flagged for a closer look

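The response to OHT differed between RING1B WT and Parental by the interaction test in edgeR for the 5 AEBP2 genes with the lowest adjusted p in Parental. The log2 difference, RING1B WT minus Parental, was -4.57 for Gata3 (adjusted p = 0.000106), -3.54 for Ccnd2 (0.000309), -1.72 for Crabp1 (0.00219), -4.27 for Hand1 (0.00254) and -3.89 for Nkx2-9 (0.00696), with 2 libraries per group. These genes were picked for their change in Parental, which enters the difference. The sizes and adjusted p-values therefore describe the most changed genes and are no separate evidence. With OHT, all 4 libraries of Parental and RING1B I53S were above both RING1B WT libraries for each of the 5 genes. For Nkx2-9, which had 3 counts in all without OHT in Parental, the difference depends on a fitted value near the detection limit.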

How the results depend on the processing

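No alternative reversed the fold change of the 8 single genes compared, which were picked for their low adjusted p. The other values are counts and shares, which have no direction to reverse. Of the values compared between settings, 84 stayed close to the reported ones and 48 moved, and the 64 values of single named genes kept their calls. With a score of at least 20, peak numbers were 372 (Parental -OHT), 5 (Parental +OHT), 470 (RING1B WT +OHT) and 19 (RING1B I53S +OHT), and at 50 they were 6, 3, 27 and 4. Without peaks at input peaks, Parental +OHT kept 1 and RING1B I53S +OHT 32. The share of Parental -OHT peaks found again was 73.9% in RING1B WT +OHT when 50% of the peak had to be covered. With each list cut to its 14 highest peaks it was 50.0% in RING1B WT +OHT and 7.14% in both Parental +OHT and RING1B I53S +OHT, and without peaks at input peaks 0.0757% and 0.151% in the latter 2.

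Promoter shares for Parental -OHT were 76.3% with a 1 kb window, 78.6% for protein-coding genes and 90.9% at a score of 20, and for RING1B WT +OHT 72.8%, 73.5% and 88.1%. At that score they were 100% in Parental +OHT and 68.4% in RING1B I53S +OHT. Shares of target loci were 9.74%, 24.99% and 22.6% in Parental -OHT and 12.2%, 26.4% and 24.0% in RING1B WT +OHT with a score of at least 20, with 50% coverage and with the RING1B peaks of Parental -OHT as loci. Leaving out peaks at input peaks, an alternative chosen after seeing the data, gave 0% in Parental +OHT and 0.101% in RING1B I53S +OHT, and for the overlap of AEBP2 peaks with JARID2 0% and 3.13%. That overlap in RING1B WT +OHT was 99.8% at a score of 20 and 94.98% with the other JARID2 library.

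At an AEBP2 score of at least 20, the numbers of higher genes were 221 (Parental), 21 (RING1B WT) and 214 (RING1B I53S), with 1 lower in Parental. Without a filter on low counts, 111 were higher and 1 lower in RING1B WT. Without a fold threshold, 7, 2 and 5 were lower in Parental, RING1B WT and RING1B I53S. Leaving out each RNA replicate gave 516 to 547 higher and 3 to 4 lower genes in Parental, 3 to 65 and 0 in RING1B WT, and 436 to 540 and 1 to 2 in RING1B I53S. With the replicate block, 610, 64 and 575 genes were higher and 3, 0 and 1 lower. The replicate numbers share no stated origin, and with only 2 pairs per line the correlations of same-numbered deviations (0.133, 0.0884 and 0.215) do not settle pairing. DESeq2 gave 560, 61 and 519 higher genes. Peak lists give no depth, which limits every statement on a missing peak.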

Other observations

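Chromosome 11, which holds 7.47% of protein-coding genes, carried 215 of the 1331 Parental -OHT peaks (16.2%) and 221 of the 1475 in RING1B WT +OHT (14.98%). Chromosome 2, with 8.40% of the genes, carried 145 (10.9%) and 151 (10.2%). The X chromosome, with 4.32% of the genes, carried 7 (0.526%) and 18 (1.22%). Width and score ran together, with Spearman rho of 0.62 over the peaks of Parental -OHT and 0.67 over those of RING1B WT +OHT.

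Grouped by AEBP2 score in Parental -OHT, genes that rose with OHT in Parental were found in every class. With a score of 10 to 15, 355 of 535 genes were tested and 248 were higher and 2 lower. At 15 to 20 these were 126 and 0 of 176 tested among 287, at 20 to 30 145 and 1 of 188 among 308, and at 30 or more 76 and 0 of 87 among 141. Over all genes tested 15.1% were higher and 1.83% lower. Since silent genes could pass the filter only where they were high, the classes are described without a test.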
